A study of Homo sapiens with 24 samples.

Results

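H1299, a human large cell line of non-small cell lung cancer, was examined for the transcripts that differ when it carries the acetylation-mimetic K3Q form of SIRT6 in place of an empty vector. The comparison held 6 of the 24 libraries of the study, 3 of K3Q and 3 of the empty vector (Ctr), taken by their names and matched by replicate number. The study also covered A549, another lung cancer line, and for both lines wild-type SIRT6 (WT) and the acetylation-deficient mutant K3R. In each group, library 1-1 was biological replicate 1 in batch 1, library 1-2 was biological replicate 1 in batch 2, and library 2-2 was biological replicate 2 in batch 2. All cells had taken up a lentivirus, either empty or coding for FLAG-tagged SIRT6, and all were grown in RPMI1640 with serum. Which lysines were changed is not stated in the labels, and each construct is a stable overexpression in cells that keep their own SIRT6 gene. Whether 1-1 and 1-2 share a culture is not stated either, so the p-values measure a spread between libraries that may be partly technical.

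SIRT6 is a nuclear sirtuin, an enzyme that uses NAD to remove acetyl and longer acyl groups from histone H3 and other proteins. It is known for its part in the repression of glycolytic and ribosomal genes, in lipid and sterol metabolism, in DNA repair and in the protection of telomeres. A change of lysine to glutamine imitates the neutral charge of acetyl-lysine, and a change to arginine keeps the positive charge but cannot be acetylated, which is why such mutants are used as stand-ins for an acetylated and a non-acetylated protein.

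The Ctr libraries held 21758804, 16565430 and 16808668 gene counts (1-1, 1-2 and 2-2) and the K3Q libraries 21543034, 14943189 and 18469668. Levels are given as CPM, a gene's counts per 1000000 of scaled library size, and changes as log2 changes of K3Q minus Ctr with their standard error from an edgeR quasi-likelihood fit over the 12 H1299 libraries with construct and batch as terms. VIM stood at 874 to 1356 CPM over the 6 libraries and KRT8 and KRT18 were present, while CDH1 (0 to 0.630 CPM) and EPCAM (0.0594 to 0.341 CPM) were at or near 0. The summed leukocyte markers lay at 0.454 to 1.395 CPM in Ctr and 0.760 to 1.27 in K3Q, with PTPRC at 0 in the 3 Ctr libraries and at most 0.215 in K3Q. Fibroblast markers summed to 2.16 to 6.08 CPM in Ctr and 2.43 to 5.22 in K3Q, and endothelial markers to 1.80 to 3.18 and 1.71 to 2.61. On the principal components of the 6 libraries the constructs overlapped on the first (30.9% of the variance) and the second (24.8%). They parted narrowly on the third (21.2%), where Ctr scored -32.0, -19.0 and 0.164 and K3Q 2.08, 24.6 and 24.2.

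Besides SIRT6 itself, 3 genes rose and 6 fell in K3Q. The rises were KIF1A, FAM210A and RP11-284F21.10. The falls were SIRPA, MVB12B, LIFR, UBASH3B, RAB15 and FHOD3. Of 16262 genes tested, 10 passed at a Benjamini-Hochberg adjusted p under 0.05 (0.0615%), 4 higher (0.0246%) and 6 lower (0.0369%), and 791 (4.86%) were higher and 789 (4.85%) lower at an unadjusted p under 0.05. The K3Q and Ctr libraries did not overlap in 5.55% of all genes with K3Q above and 6.28% with K3Q below. The 10 genes were chosen on these same libraries, so the lack of overlap given for each below describes them and adds no support.

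SIRT6 stood at 45.3, 34.6 and 38.4 CPM in Ctr (1-1, 1-2, 2-2) and at 15284, 11160 and 14424 in K3Q. The groups were far apart, and SIRT6 reads made up 1.46%, 1.04% and 1.44% of all gene counts in the K3Q libraries against 0.00463%, 0.00352% and 0.00402% in Ctr. The log2 change was 8.43 ± 0.47 (edgeR quasi-likelihood test, adjusted p = 1.73e-06). These counts do not separate the lentiviral from the endogenous transcript, whose gene lies on GRCh38 chromosome 19 at 4174109 to 4182604, on the minus strand. Of the other sirtuins, none passed: the log2 changes were -0.06 for SIRT1, 0.16 for SIRT2, 0.10 for SIRT3, -0.59 for SIRT4, 0.18 for SIRT5 and 0.05 for SIRT7, with adjusted p of 0.665 or more. The signs for SIRT1, SIRT3 and SIRT7 turned under a correction for GC content. SIRT4 was near the limit of detection, at 0.416 to 0.765 CPM in Ctr and 0.143 to 0.683 in K3Q.

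**Figure D1:**
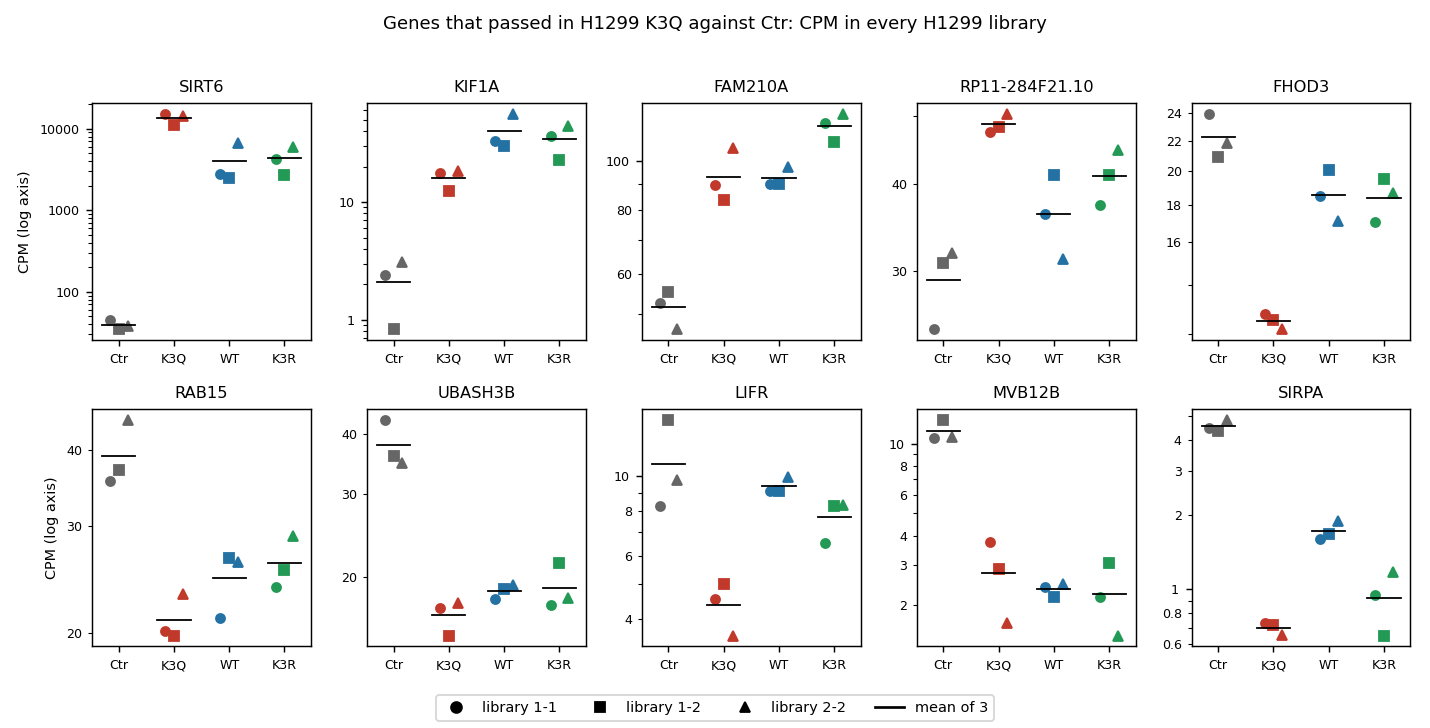
CPM of the 10 genes that passed, on log axes with a range of their own, in every H1299 library of Ctr, K3Q, WT and K3R (circle 1-1, square 1-2, triangle 2-2, line the mean of 3). In each of the 10 panels the 3 K3Q libraries lie on one side of the 3 Ctr libraries, but the genes were chosen on these libraries, so this adds no support.

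KIF1A, a kinesin motor that carries synaptic vesicle precursors along microtubules, rose most after SIRT6. It stood at 2.39, 0.832 and 3.12 CPM in Ctr and at 17.7, 12.5 and 18.3 in K3Q. Every K3Q library was above every Ctr library, and the log2 change was 2.92 ± 0.39 (edgeR quasi-likelihood test, adjusted p = 0.0108). KIF1A lies on chromosome 2, 240713761 to 240821036, minus strand. It was the 1 member that passed among 26 tested genes of neuronal vesicles and channels, a list whose median log2 change was 0.06 (-0.04 without Ctr 1-2 and 0.40 without Ctr 1-1), with 13 members positive and 13 negative.

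FAM210A, a mitochondrial protein (chromosome 18, 13663347 to 13726663, minus strand), stood at 52.7, 55.2 and 46.6 CPM in Ctr and at 89.6, 83.7 and 106 in K3Q. Every K3Q library was above every Ctr library, and the log2 change was 0.85 ± 0.11 (edgeR, adjusted p = 0.0108). RP11-284F21.10, a clone-named gene that was not placed in the annotation used here, read 24.8, 30.9 and 31.8 CPM in Ctr and 47.4, 48.2 and 50.4 in K3Q. Its groups did not overlap either, with a log2 change of 0.74 ± 0.12 (edgeR, adjusted p = 0.0475).

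SIRPA showed the steepest fall. It codes for an inhibitory receptor of myeloid cells and neurons whose ligand is CD47. Its level was low throughout, at 4.46, 4.34 and 4.82 CPM in Ctr and 0.731, 0.716 and 0.652 in K3Q. The libraries of each group lay close together and far from those of the other, and the log2 change was -2.69 ± 0.28 (edgeR, adjusted p = 0.00177). SIRPA lies on chromosome 20, 1894167 to 1940592, plus strand. In these bulk samples fewer cells with the transcript and less transcript in each cell cannot be told apart.

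MVB12B codes for a subunit of ESCRT-I, the complex that sorts ubiquitinated membrane proteins into multivesicular bodies (chromosome 9, 126326849 to 126507041, plus strand). It stood at 10.6, 12.7 and 10.7 CPM in Ctr and at 3.75, 2.86 and 1.68 in K3Q. The groups did not overlap, although the K3Q libraries varied among themselves more than those of Ctr relative to their level, and the log2 change was -2.04 ± 0.29 (edgeR, adjusted p = 0.0149). RAB15, a small GTPase of endocytic recycling (chromosome 14, 64945814 to 64973226, minus strand), read 35.5, 37.0 and 44.8 CPM in Ctr and 20.2, 19.8 and 23.2 in K3Q. Its highest K3Q value was below its lowest Ctr value, and it fell by 0.89 ± 0.12 on the log2 scale (edgeR, adjusted p = 0.0108).

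LIFR and UBASH3B act in signalling from cell surface receptors. LIFR, the receptor for leukemia inhibitory factor, which pairs with gp130 to activate STAT3 (chromosome 5, 38474963 to 38608354, minus strand), read 8.28, 14.4 and 9.76 CPM in Ctr and 4.53, 5.01 and 3.58 in K3Q. The groups were apart but the Ctr libraries were uneven, with 1-2 the highest, and the log2 change was -1.28 ± 0.20 (edgeR, adjusted p = 0.0454). UBASH3B, a phosphatase that removes phosphate from tyrosine kinases (chromosome 11, 122655675 to 122814473, plus strand), read 42.9, 36.1 and 34.8 CPM in Ctr and 17.2, 15.03 and 17.6 in K3Q. K3Q was lower by more than the spread of either group, with a log2 change of -1.19 ± 0.13 (edgeR, adjusted p = 0.00225).

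FHOD3, a formin that builds actin filaments and is best known from the sarcomere (chromosome 18, 36297714 to 36780055, plus strand), read 23.9, 20.9 and 21.8 CPM in Ctr and 12.8, 12.5 and 12.2 in K3Q. The K3Q libraries were nearly alike, and FHOD3 fell by 0.83 ± 0.12 on the log2 scale (edgeR, adjusted p = 0.0212).

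SIRT6 passed in each alternative fit. SIRPA and UBASH3B passed without any 1 of the 6 libraries, but the calls of the other 7 genes depended on single libraries: 3 of the 10 remained without Ctr 1-1, 6 without Ctr 1-2, 4 without Ctr 2-2, 4 without K3Q 1-1, 5 without K3Q 1-2 and 5 without K3Q 2-2. With libraries 1-1 and 1-2 summed to 1 library, or in batch 2 alone, SIRT6 was the only 1 of the 10 to pass, and the log2 change of SIRPA was then -2.72 (edgeR, adjusted p = 0.0522) or -2.74 (adjusted p = 0.377).

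**Figure D2:**
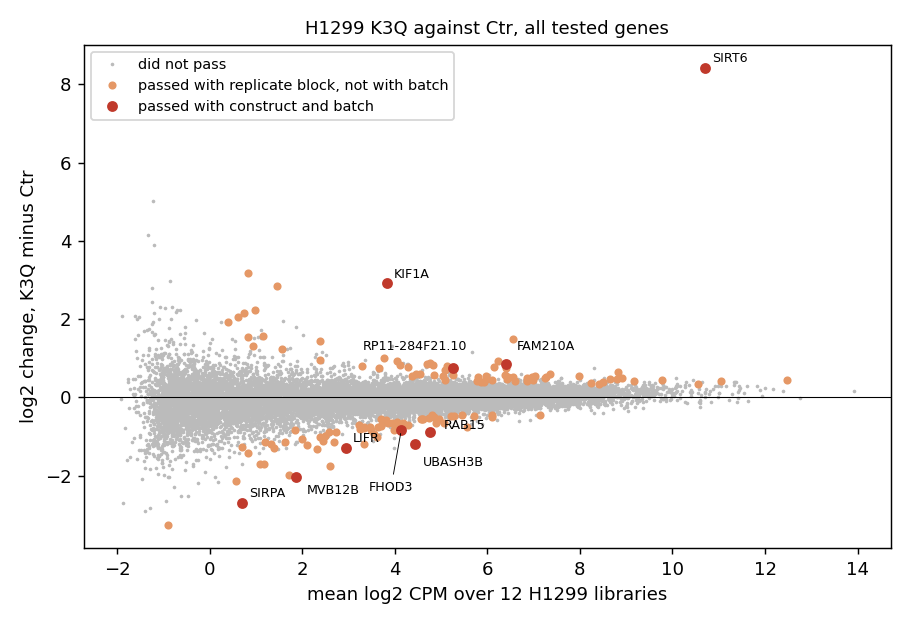
Log2 change of K3Q minus Ctr (vertical) against mean log2 CPM over the 12 H1299 libraries (horizontal) for 16262 tested genes, with the 10 that passed in red and, in orange, those that did not pass in this fit but passed with the replicate number as a block. SIRT6 stands at 8.43, KIF1A at 2.92 and SIRPA at -2.69, and most other genes lie close to 0.

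The promoter windows of the genes that passed are of interest because SIRT6 works on chromatin. RefSeq's promoter table (GRCh38.p14) gave 1 start site for 4 of the 10 genes. For 3 of these, FAM210A, UBASH3B and MVB12B, the 250 bases before the start are printed here, since each of them also passed against Ctr with WT and with K3R. They lie at chr18:13726559-13726808 (minus strand), chr11:122655472-122655721 (plus strand) and chr9:126326579-126326828 (plus strand), and are read 5′ to 3′ on the strand of the gene. Capitals mark matches, on either strand, to the hypoxia response core ACGTG, the E-box CACGTG, which contains that core, or the AP-1 site TGANTCA.
FAM210A: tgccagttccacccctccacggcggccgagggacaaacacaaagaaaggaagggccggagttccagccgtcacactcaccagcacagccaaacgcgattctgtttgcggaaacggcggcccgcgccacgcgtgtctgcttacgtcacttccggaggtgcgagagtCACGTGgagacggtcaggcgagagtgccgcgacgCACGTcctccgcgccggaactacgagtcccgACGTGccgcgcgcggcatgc
UBASH3B: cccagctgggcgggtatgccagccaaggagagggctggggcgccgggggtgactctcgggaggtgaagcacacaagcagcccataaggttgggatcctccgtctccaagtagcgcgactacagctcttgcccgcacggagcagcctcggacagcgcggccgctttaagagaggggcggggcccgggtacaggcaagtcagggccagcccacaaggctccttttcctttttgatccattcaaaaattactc
MVB12B: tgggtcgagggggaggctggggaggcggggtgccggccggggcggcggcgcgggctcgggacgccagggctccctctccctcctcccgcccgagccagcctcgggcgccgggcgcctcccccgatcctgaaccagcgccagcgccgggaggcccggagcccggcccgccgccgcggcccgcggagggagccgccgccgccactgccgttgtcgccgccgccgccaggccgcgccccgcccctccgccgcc
The windows are rich in GC, at 66%, 62.4% and 85.2%, with 34, 15 and 41 CpG. The FAM210A window, of the gene that rose, held an E-box and further ACGTG cores, and the windows of the 2 genes that fell held none of the 3 motifs, nor did that of FHOD3. By the GENCODE position of FAM210A, its marked motifs lie inside the gene and not before it. Among 8043 tested genes with 1 start site, 23.9% of windows held ACGTG, 9% the E-box and 3.59% the AP-1 site, so a match of the first kind is common.

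Libraries of the same number deviated from their group means together. The correlation across genes between Ctr and K3Q deviations was 0.373, 0.312 and 0.398 for 1-1, 1-2 and 2-2, and between -0.312 and -0.038 for unequal numbers. Deviations from a mean of 3 libraries sum to 0, so the negative values follow in part from the positive ones. With the replicate number as a block in place of batch, 136 genes passed (0.836% of those tested), 71 higher (0.437%) and 65 lower (0.4%), among them the 10 above. All 136 moved the same way in the 3 matched differences, but the block fit selects for that, so it adds no support. Of the 136, 109 had CPM groups that did not overlap. Over all genes, 5.55% lay above and 6.28% below Ctr without overlap. The 136 block calls had a median absolute log2 change of 0.747, and 128 of them were protein-coding. Among the 16262 genes tested, 12727 were protein-coding and 2050 had no match in the annotation.

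Several genes that did not pass with construct and batch rose in the fit with the block. TNS1 codes for tensin, which ties integrins to actin. It read 0.405, 0 and 0.284 CPM in Ctr and 1.32, 2.08 and 2.17 in K3Q, a log2 change of 2.85 with the block (edgeR, adjusted p = 0.0263) and 2.86 without it (adjusted p = 0.0929). Both groups were low, and they did not overlap. HSPA1A, an inducible HSP70 chaperone with a near-identical copy that makes its count uncertain, was uneven in both groups. It read 51.6, 117 and 36.5 CPM in Ctr and 88.5, 391 and 171 in K3Q, with a log2 change of 1.505 in the block fit (edgeR, adjusted p = 0.0352).

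APOE, the lipid carrier of lipoproteins, varied more between replicates than between constructs. It read 53.4, 10.3 and 106 CPM in Ctr and 111, 38.8 and 168 in K3Q, so the groups overlapped while every matched difference was positive. The log2 change was 1.18 with the block (edgeR, adjusted p = 0.0280) and 0.92 without it (adjusted p = 0.772). NPTX1 (1.46), a neuronal pentraxin, the kinase gene RPS6KA2 (1.21), the antisense RNA ZNF503-AS2 (1.56) and the chromatin remodeller CHD5 (0.98) also passed under the block at these log2 changes, with adjusted p of 0.0280 to 0.0454. ITGB4, the integrin subunit of hemidesmosomes, rose from 9.80 ± 3.27 to 17.6 ± 2.81 CPM (SD, n = 3), by 0.86 on the log2 scale (edgeR with the block, adjusted p = 0.0341). LSR, which seals tricellular junctions, rose from 55.6 ± 12.3 to 93.9 ± 11.7 CPM, by 0.76 (edgeR with the block, adjusted p = 0.0280). Against the same Ctr libraries, with batch, the changes in WT and K3R were 1.31 and 1.32 for APOE and 2.00 and 1.96 for NPTX1. They were 1.15 and 0.07 for RPS6KA2, 1.30 and 1.49 for ZNF503-AS2 and 2.31 and 2.14 for CHD5. For ITGB4 they were 1.24 and 1.31 and for LSR 0.87 and 0.80.

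Others that did not pass with construct and batch fell in the fit with the block. EMP2, a tetraspan membrane protein, read 7.97, 7.72 and 5.79 CPM in Ctr and 2.00, 2.15 and 1.30 in K3Q. Its groups were well apart, with a log2 change of -1.996 (edgeR with the block, adjusted p = 0.0174) against -1.98 without it (adjusted p = 0.0919). ZNF704, a zinc finger gene, read 18.1, 27.0 and 19.5 CPM in Ctr and 6.05, 7.16 and 5.97 in K3Q, a log2 change of -1.74 (edgeR with the block, adjusted p = 0.00478). RHOBTB1, GUCY1A2, a subunit of guanylate cyclase, and RALGPS2, an exchange factor for Ral, fell by 1.72, 1.71 and 1.32 on the log2 scale, each with groups that did not overlap. Against the same Ctr libraries, with batch, EMP2 changed by -1.33 in WT and -1.25 in K3R and ZNF704 by -2.71 and -2.77. RHOBTB1 changed by -2.46 and -2.18, GUCY1A2 by -1.27 and -1.50 and RALGPS2 by -0.42 and -1.11.

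LGR4, a receptor for R-spondins, fell by 1.21 and TCF7L1, a transcription factor of Wnt signalling, by 1.14 on the log2 scale, while NOTUM, a secreted Wnt inhibitor, rose by 1.53 (edgeR with the block, adjusted p = 0.0321, 0.0366 and 0.0475). NOTUM was low, at 0.511 to 0.832 CPM in Ctr and 1.93 to 2.15 in K3Q. Of 24 tested TGF-beta and BMP genes, 2 fell with the block, the receptors TGFBR1 and BMPR1B, against 0.4% of all genes. TGFBR1 read 35.0, 51.1 and 37.2 CPM in Ctr and 22.9, 28.2 and 27.5 in K3Q, a log2 change of -0.64 (edgeR with the block, adjusted p = 0.0201). BMPR1B fell by 1.09 from 8.07 ± 1.41 CPM (adjusted p = 0.0297). The Notch ligand JAG1 went from 12.8 ± 1.56 to 7.36 ± 1.67 CPM and fell by 0.84 (adjusted p = 0.0352). NID1, which links laminin to collagen IV in basement membranes, went from 21.6 ± 3.24 to 12.1 ± 1.498 CPM and fell by 0.83 (adjusted p = 0.0249), and SLIT3, a secreted guidance cue, fell by 0.99 (adjusted p = 0.0354, edgeR with the block). In the fit with construct and batch none of these genes passed, with adjusted p between 0.0704 and 0.772. In WT and K3R against the same Ctr libraries, with batch, the changes were -0.56 and -0.62 for TGFBR1 and -1.81 and -1.22 for BMPR1B. They were -0.66 and -1.20 for LGR4, -1.37 and -1.79 for TCF7L1 and 1.63 and 1.77 for NOTUM. For NID1 they were -0.45 and -0.55, for JAG1 0.08 and -0.11 and for SLIT3 0.46 and 0.41.

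The contrasts of WT and K3R with Ctr use the same 3 Ctr libraries, so their values are given side by side and not counted as agreement. For UBASH3B the log2 changes were -1.19 in K3Q, -1.02 in WT and -0.997 in K3R, for RAB15 -0.89, -0.67 and -0.59, for MVB12B -2.04, -2.27 and -2.33, and for FAM210A 0.85, 0.84 and 1.18. Each of these passed in each contrast, where 4.05% of all genes were called for WT and 3.25% for K3R. SIRPA and KIF1A passed in each as well, at -2.69, -1.40 and -2.30 and at 2.92, 4.22 and 4.01. RP11-284F21.10 stood at 0.74, 0.32 and 0.50, of which the value in WT did not pass (edgeR, adjusted p = 0.175). FHOD3 and LIFR passed in K3Q at -0.83 and -1.28 and did not pass in the other two, with -0.26 and -0.19 in WT (adjusted p = 0.275 and 0.689) and -0.27 and -0.48 in K3R (adjusted p = 0.252 and 0.217).

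Although the Ctr libraries were in the fit that set the spread, the direct test of K3Q against WT gave them no weight. It called 3.46% of all genes (12% with the block), and since the 10 genes were chosen on the same K3Q libraries their calls are a description. FHOD3 was lower in K3Q than in WT, at 12.5 ± 0.305 against 18.5 ± 1.497 CPM (log2 -0.57 ± 0.12, edgeR, adjusted p = 0.0262). LIFR was lower too, at 4.38 ± 0.726 against 9.37 ± 0.484 CPM (log2 -1.10 ± 0.21, edgeR, adjusted p = 0.0150). SIRPA was lower at 0.700 ± 0.0421 against 1.71 ± 0.157 CPM (log2 -1.28 ± 0.29, adjusted p = 0.0320). The constructs also differed in SIRT6 level, with means of 13623 CPM in K3Q, 3984 in WT and 4332 in K3R. The part of that level in these differences was not tested.

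KIF1A ran the other way from SIRT6 between these constructs. SIRT6 was higher in K3Q than in WT by 1.78 ± 0.35 on the log2 scale (edgeR, adjusted p = 0.0183), and KIF1A was lower, at 16.1 ± 3.20 against 39.8 ± 14.3 CPM (log2 -1.30 ± 0.33, adjusted p = 0.0469). TNS1 was likewise lower in K3Q than in WT, where it read 6.81, 11.8 and 11.2 CPM (log2 -2.42, adjusted p = 0.00539). JAG1 and SLIT3, which read 13.8 ± 2.75 and 17.6 ± 5.05 CPM in WT, were lower in K3Q by 0.91 and 1.46 on the log2 scale (edgeR, adjusted p = 0.0174 and 0.00539). For UBASH3B, FAM210A, RAB15 and MVB12B the K3Q minus WT differences were -0.17 ± 0.13, 0.01 ± 0.11, -0.22 ± 0.12 and 0.23 ± 0.30, and none passed. RP11-284F21.10 differed by 0.42 ± 0.12 and did not pass in this fit (edgeR, adjusted p = 0.0707), but passed with the block (adjusted p = 0.0240). Against K3R, where 0.449% of all genes were called (3.23% with the block), none of the 10 passed. With the block SIRT6 (1.73), KIF1A (-1.06), FHOD3 (-0.56) and LIFR (-0.81) did, with adjusted p between 0.000873 and 0.0308 by edgeR.

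**Figure D3:**
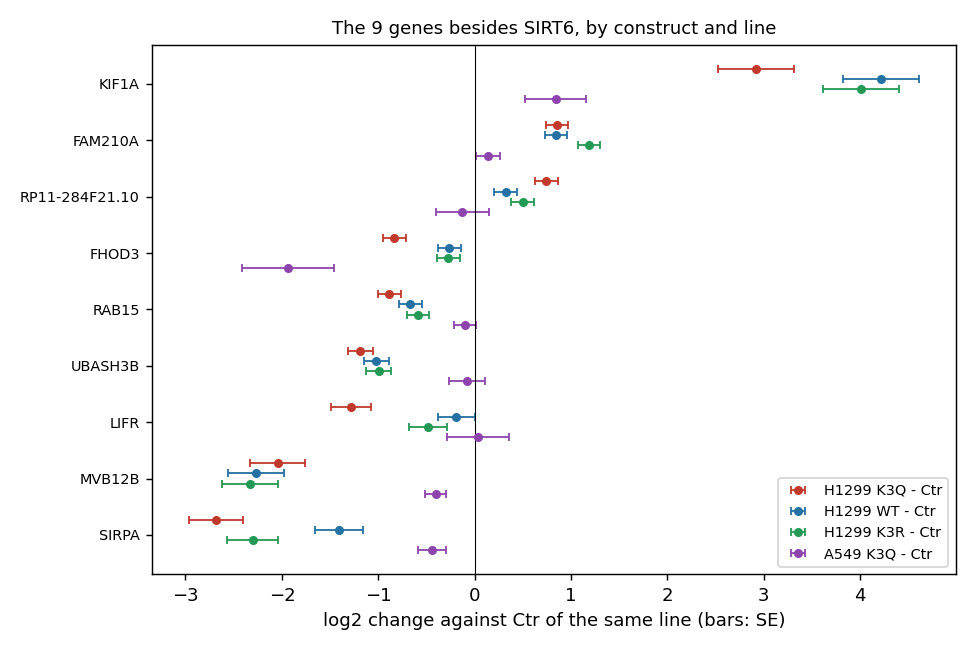
Log2 change against Ctr of the same line, with its standard error as bars, for the 9 genes besides SIRT6 in H1299 K3Q, WT and K3R and in A549 K3Q. UBASH3B, MVB12B, RAB15 and FAM210A lie away from 0 for all 3 constructs of H1299, and FHOD3 and LIFR are farther from 0 in K3Q than in WT and K3R of that line.

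In A549, where K3Q libraries 1-2 and 2-2 were nearly identical (chi-square per degree of freedom 2.60, against 16.8 to 34.7 within H1299 groups), K3Q against Ctr called 4 of 16120 genes (0.0248%), and SIRT6 was the 1 gene called in both lines. Its level in K3Q was 1472, 1696 and 1582 CPM in A549, against 15284, 11160 and 14424 in H1299. Line and SIRT6 level thus differ together in this comparison, and their separate parts were not tested. The interaction of line and construct, over 24 libraries and 18102 genes, called 3 genes (0.0166%). SIRPA was the 1 of these that passed within H1299. In A549 its level was 80.4, 98.7 and 61.6 CPM in Ctr and 62.2, 57.9 and 57.0 in K3Q, a log2 change of -0.44 ± 0.15 that did not pass (edgeR, adjusted p = 0.416). The change in H1299 minus that in A549 was -2.24 ± 0.26 (edgeR interaction, adjusted p = 0.000694). With the near-identical pair summed to 1 library it was the only gene called (0.00536% of 18672, adjusted p = 0.00263). The interaction values of KIF1A (2.08), MVB12B (-1.64) and LIFR (-1.32) did not pass (adjusted p = 0.321, 0.0936 and 0.490). FHOD3 went from 4.64, 15.6 and 13.6 CPM in A549 Ctr to 2.16, 2.50 and 3.36 in A549 K3Q without passing there (log2 -1.94 ± 0.48, adjusted p = 0.252).

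The gene lists were shifted by little. Over all genes tested the median log2 change was -0.01. With the block 0.437% of all genes were called higher and 0.4% lower, the shares to set beside the block calls of each list. Of the cytosolic ribosomal proteins, 77 of 78 had a positive change, with a median of 0.24 and matched medians of 0.15, 0.38 and 0.14 for 1-1, 1-2 and 2-2. None passed in the fit with batch, and RPS9, RPL13A and RPS3 passed with the block at 0.43, 0.41 and 0.34 (edgeR, adjusted p = 0.0352, 0.0366 and 0.0453). RPS9 read 870, 801 and 739 CPM in Ctr and 1286, 1167 and 835 in K3Q. The groups overlapped by the lowest K3Q value, and the counts of such genes may be shared with processed pseudogenes. The median of the list stayed positive in the 20 alternative fits, between 0.11 (without K3Q 1-2) and 0.33 (without K3Q 2-2). In the contrasts of WT and K3R with the same Ctr libraries the medians were -0.05 and 0.04.

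Among energy and biosynthesis lists, the nuclear genes of oxidative phosphorylation had a median of 0.15 (30 of 32 positive, none passed, none with the block), which was 0.06 without K3Q 1-2 and 0.22 without K3Q 2-2. Of the mitochondrially encoded mRNAs, 12 of 13 were negative with a median of -0.10, which was 0.06 without Ctr 2-2 and -0.28 without K3Q 2-2. Glycolysis had a median of 0.19 with 19 of 22 positive. PFKP, the platelet-type phosphofructokinase, passed with the block and rose from 243 ± 11.6 to 313 ± 5.19 CPM (log2 0.37, adjusted p = 0.0458). Cholesterol and fatty acid synthesis had a median of 0.23 with 23 of 26 positive, and the median was 0.14 without Ctr 1-1. At an unadjusted p under 0.05, where 4.86% of all genes were higher, 8 of the 26 were. DHCR7, the last enzyme of cholesterol synthesis, read 129, 102 and 99.2 CPM in Ctr and 212, 155 and 124 in K3Q, and rose by 0.56 with the block (edgeR, adjusted p = 0.0352). Its groups overlapped between K3Q 2-2 and Ctr 1-1.

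Stress lists moved unevenly over the libraries. The heat shock list had a median of 0.26, from -0.03 in 1-1 to 0.66 in 2-2, and 0.12 without K3Q 1-2 and 0.40 without Ctr 1-2, with HSPA1A the 1 member called with the block. NRF2 targets had a median of 0.20, with 19 of 26 positive and none called in either fit, and the median was 0.02 without Ctr 1-2. The ATF4 and amino acid list had a median of 0.23 but its matched medians were 0.87, 0.41 and -0.22, and none of its 23 members passed in either fit. Its median was -0.05 in batch 2 alone, -0.01 without Ctr 1-1 and 0.82 without Ctr 2-2.

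Interferon-stimulated genes had a median of -0.22, with 19 of 26 negative and none called in either fit, and the median was -0.13 without Ctr 1-1. Of the MHC class I list, 11 of 15 were negative with a median of -0.11 that was positive (0.03) without Ctr 1-1. HLA-B read 202, 172 and 198 CPM in Ctr and 136, 152 and 129 in K3Q, without overlap, and fell by 0.46 with the block (edgeR, adjusted p = 0.0345), in a family whose members can share reads. In WT and K3R against the same Ctr libraries HLA-B changed by -0.70 and -0.63. Matrix proteases and inhibitors had a median of -0.25 (14 of 20 negative), which was -0.04 without Ctr 1-1, led by MMP9 at 1.99 ± 0.998 against 0.707 ± 0.167 CPM (log2 -1.52, adjusted p = 0.325). Collagens had a median of -0.14 with matched medians of -0.40, 0.15 and 0.05, and the median turned to 0.32 without Ctr 1-1. No epithelial or mesenchymal gene passed in the fit with construct and batch. The medians were 0.09 for epithelial junctions (14 of 21 positive), and 0.15 without K3Q 1-1, and -0.11 for mesenchymal and EMT factors (11 of 18 negative), and -0.28 without Ctr 2-2.

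The cell cycle and repair lists sat near 0. The medians were 0.06 for 36 G1/S genes, 0.02 for 36 G2/M genes, -0.02 for 37 DNA repair genes, -0.04 for 26 Polycomb and DNA methylation genes and 0.01 for 24 p53 targets, and each of these changed sign in at least 1 alternative fit. CDC20, the activator of the anaphase-promoting complex, was the 1 of these called with the block, with a rise from 424 ± 87.2 to 597 ± 163 CPM (log2 0.48, adjusted p = 0.0362). With the block 0.836% of all genes were called, so 1 call among these lists is not a result about them.

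**Figure D4:**
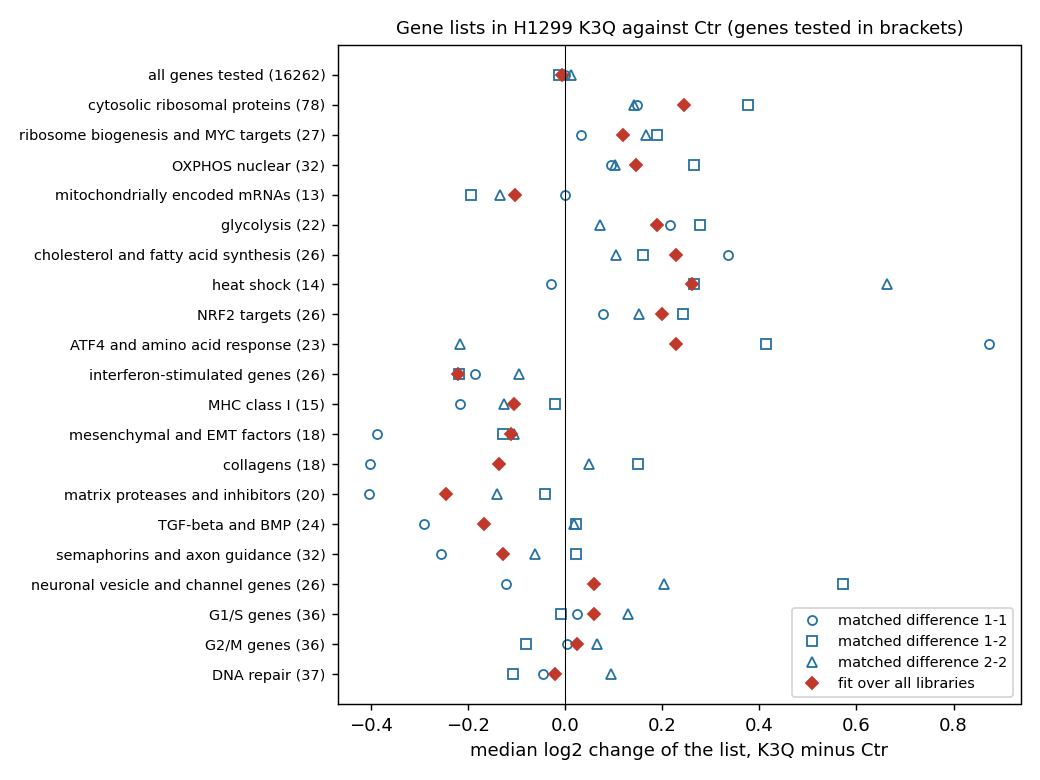
Median log2 change of K3Q minus Ctr in 20 gene lists and over all genes, from the fit (red diamonds) and from each matched difference (circle 1-1, square 1-2, triangle 2-2), with the number of genes tested in brackets. Ribosomal protein genes sit at 0.15, 0.38 and 0.14 in the 3 matched differences, whereas the ATF4 list runs from 0.87 to -0.22.

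Base composition moved with the change. Over 14239 tested genes with a known transcript, the median log2 change climbed over 5 equal classes of transcript GC content, from -0.12 in the lowest through -0.06, 0.01 and 0.09 to 0.15 in the highest. The matched differences of 1-1 (-0.16 to 0.15) and 1-2 (-0.24 to 0.28) showed it, and that of 2-2 did not, at 0.01 in the lowest and the highest class. The medians of K3R minus Ctr, on the same Ctr libraries, ran from -0.08 in the lowest class to 0.13 in the highest. Those of WT minus Ctr were 0.0007 and 0.04 in these classes. The genes that rose with the block had a median GC of 59.9% and a median length of 2611 bases, those that fell 45.9% and 5808 bases, and all genes 48.3% and 3520 bases. Of the genes that rose, 40 lay in the highest class and 0 in the lowest, and of those that fell 6 and 17.

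Chromosome 19 held 18 of the 71 genes that rose with the block and 0 of the 65 that fell, among 1066 tested. SIRT6, whose counts include the lentiviral transcript, was 1 of these, and without it chromosome 19 held 17 of 70. Its median was 0.13 against -0.01 on the other chromosomes. Within the highest GC class the medians were 0.20 on chromosome 19 and 0.13 elsewhere. After a loess correction of each library for GC content, with the block, 235 genes passed, 125 higher and 110 lower. These held 114 of the 131 block calls with a known GC and 15 of the 18 on chromosome 19. On that chromosome 23 genes were then higher and 5 lower, and its median was 0.05. Of the 10 genes, the 9 with a known GC all passed in that fit, and without the block all but LIFR (log2 -1.11, edgeR, adjusted p = 0.0654). The ribosomal protein median was 0.24 with the correction and the block, and that of the interferon-stimulated genes was -0.12. The part of GC content in the remaining calls was not tested.

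**Figure D5:**
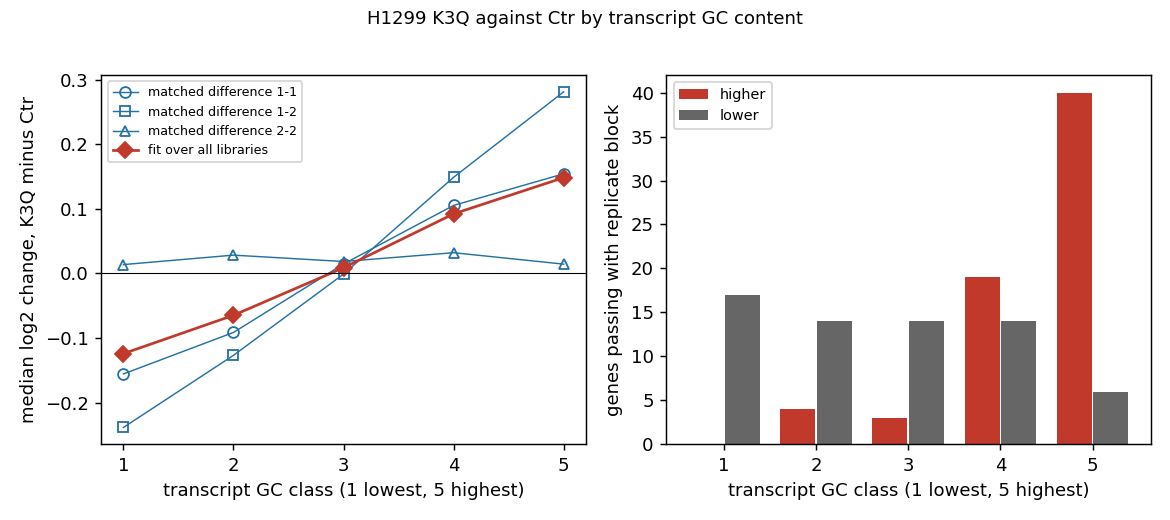
Median log2 change of K3Q minus Ctr in 5 classes of transcript GC content (left), from the fit and from each matched difference, and the number of genes that passed with the replicate block in each class (right; red higher, grey lower). The medians climb in 1-1, 1-2 and the fit, and the 2-2 line is flat near 0.01.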

How the data were processed

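RNA was extracted with RNAiso Plus and sequenced as SMARTer libraries, per the labels. The authors deposited raw counts for 59385 gene symbols, made with FastQC, cutadapt, STAR and featureCounts on GRCh38, per the submitters' processing notes. Versions, annotation release and strand setting were not given in the sources used here, so overlapping and antisense genes cannot be told apart. Columns were mapped by name. In R 4.3.3, edgeR 4.0.16 (filterByExpr, TMM, quasi-likelihood test, Benjamini-Hochberg) was fitted to the 12 H1299 libraries with construct and batch. Log2 changes carry the SE implied by the F statistic, and matched differences used a prior count of 2. Replicate numbers, which the labels tie to batch and biological replicate, also formed a block, since every pair's correlation was above 0.1. Positions come from GENCODE 29, which matched 14212 of 16262 tested symbols, and promoter windows from RefSeq. The procedure was run on simulated counts with known changes in 200 genes. These were drawn without batch or replicate effects, so they cannot check those terms.

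The named genes are the sirtuins, those that passed, and the 15 largest rises and falls among genes passing with batch or with the block. Those rises and falls needed the same direction in all 3 matched differences and a mean log2 CPM of at least 1. SIRPA, below that level, is named because it passed. Genes named under the block, and NID2 and AMOTL1, were chosen after their values were seen. Not every gene that this rule or the rule for leading members of the gene lists names is reported here. Members and lists were chosen with earlier results of these data known. Alternatives were no batch term, the replicate block, scaling by RLE, no filter on low counts, DESeq2 1.42.0, 6 or 24 libraries, biological replicate 1 summed, batch 2 alone and leaving out each library. Leaving out WT 2-2 and K3R 2-2, summing the A549 pair and the GC correction were chosen after seeing the data.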

Additional observations from a re-analysis of the deposited data

Results flagged for a closer look

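The K3Q change of 3 genes differed between H1299 and A549 in the edgeR interaction test, each lower in H1299. SIRPA differed by -2.24 log2 units, as described above. NID2, a basement membrane nidogen, differed by -2.46 (adjusted p = 0.0450, and 0.0642 with the near-identical A549 K3Q pair summed). It read 2.52, 1.66 and 1.59 CPM in H1299 Ctr and 0.634, 0.644 and 0.652 in K3Q, and 6.32, 4.41 and 8.54 in A549 Ctr and 16.9, 10.1 and 9.61 in K3Q, and passed within neither line. AMOTL1, a scaffold protein that binds YAP, differed by -0.86 (edgeR, adjusted p = 0.0133, and 0.0593 with the pair summed). It read 44.8, 46.5 and 44.3 CPM in H1299 Ctr and 32.4, 32.8 and 38.1 in K3Q, against 66.6, 58.8 and 62.5 in A549 Ctr and 86.0, 83.0 and 90.2 in K3Q. In both genes the K3Q libraries lay below Ctr in H1299 and above it in A549. The SIRT6 level in K3Q also differed between the lines, as given above, and the cause was not tested.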

How the results depend on the processing

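The count of 10 genes was 8 without the batch term, 10 with RLE scaling, 9 in the 6 Ctr and K3Q libraries alone (5 of the 10) and 15 with the GC correction. It moved to 136 with the replicate block, which uses the pairing by number, to 260 with no low-count filter (35567 genes tested), to 126 in DESeq2 and to 43 over 24 libraries (7 of the 10). It was 1 with biological replicate 1 summed and 1 in batch 2 alone, fits with fewer libraries, and between 3 and 8 when 1 library was left out. Without WT 2-2 and K3R 2-2, which had the highest SIRT6 share of counts in their groups (0.688% and 0.607%), 41 passed, the 10 included. On the genes with a known GC content the block fit called 134 without and 235 with the correction. The cause of these moves was not tested. Of 119 named genes, 115 kept their sign in every alternative fit that tested them (16 to 20 fits). With the GC correction, and with it and the block, SIRT1 turned to 0.06238 and 0.06203, SIRT3 to -0.008777 and -0.01162, SIRT7 to -0.02638 and -0.02649 and NRAS to 0.009181 and 0.01438. Leaving out 1 library gave -0.1531 to 0.0003062 for SIRT1 and -0.0246 to 0.2353 for SIRT3. None of these 4 had passed. Genes near 1 CPM rest on few reads at 14943189 to 21758804 counts a library.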
